A study of Ambystoma mexicanum with 8 samples.

Results

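The nuclear genes for subunits of the oxidative phosphorylation complexes were followed across the cell classes of the axolotl limb. Members were taken by name: an identifier counted when the last symbol in its annotation, in capitals, began with NDUFA, NDUFB, NDUFC, NDUFS, NDUFV, UQCR, COX4 to COX8 or ATP5, or was SDHA, SDHB, SDHC or SDHD. The rule used no measured value, though earlier results of these data were known when the members were chosen. It found 107 of the 60956 genes of the table, with 76 different symbols. They comprised 36 identifiers of complex I, 9 of complex I assembly factors, which share the NDUFA prefix, 3 of complex II, 13 of complex III, 19 of complex IV and 27 of the ATP synthase. Complex II was represented by SDHA, SDHB and SDHC. Each of the 107 had at least 1 UMI, and 10 had fewer than 100 in all cells.

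Oxidative phosphorylation takes place in the inner mitochondrial membrane. Complex I (NADH dehydrogenase) and complex II (succinate dehydrogenase) pass electrons to ubiquinone, complex III passes them on to cytochrome c, complex IV (cytochrome c oxidase) hands them to oxygen, and the ATP synthase uses the proton gradient built on the way to make ATP. Complex II also catalyses a step of the citric acid cycle and pumps no protons. Some complex IV subunits exist as paralogues with different tissue patterns, which in mammals include a heart and muscle form, COX7A1, and a broadly used form, COX7A2.

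Live limb cells of Ambystoma mexicanum were sorted for a DNA content of 4 C and profiled by droplet sequencing of transcript 3′ ends, in 4 Contra libraries (numbers 1, 2, 3 and 5) and 4 Intact libraries (numbers 1, 3, 4 and 5). The series describes limbs activated systemically, collected 14 days after an amputation, and homeostatic limbs. Contra was taken for the systemically activated and Intact for the homeostatic limbs, since the labels do not spell the names out. Nothing in the labels says how many animals stand behind a library, so p-values measure the spread between libraries, which may be technical. A pair of attached cells with single DNA content would pass the same sort, and no doublet caller was run.

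The table held 34149 cells, 23118 from Contra and 11031 from Intact libraries. A library had between 13321764 and 99724949 UMIs (unique molecular identifiers, 1 per captured molecule) in cells with at least 500 detected genes. Classes were gated on marker genes, which gave 7788 epidermal, 2184 endothelial, 445 macrophage and 15016 connective tissue cells, and smaller erythroid, mast cell or basophil, muscle fibre and T cell gates. The gates were rebuilt here and are ranges of marker content: 1669 epidermal, 170 endothelial, 44 macrophage and 1271 connective tissue cells lay at the minimum of 3 markers. Summed epidermal markers stood at 25152 to 37303 CPM (counts per 1000000 UMIs of the gate) in the epidermal gate, against 309 to 1292 CPM in the connective tissue gate. Summed connective tissue markers stood at 1985 to 6491 CPM in the epidermal gate, against 68867 to 87198 CPM in the connective tissue gate. Between libraries, 135 barcode sequences recurred, in 270 cells.

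All members together took 9672 ± 1959 CPM of all cells (SD, n = 8 libraries), with differences between classes. The 8 libraries averaged 13175 ± 2760 CPM in the epidermal, 8285 ± 958 in the endothelial, 11530 ± 1789 in the macrophage and 9018 ± 1257 in the connective tissue gate (SD, n = 8). The epidermal level was above that of connective tissue in 8 of 8 libraries, by 1.19 to 2.34 times. These sums carry no correction for the depth of the cells, which changed the epidermal ratio as described below. Macrophages were above connective tissue in 7 of 8 libraries, at 0.997 to 1.45 times, and endothelial cells in 3 of 8, at 0.808 to 1.04 times. Erythroid cells lay lowest of the gates, at 0.244 to 0.345 times the connective tissue level in every library. Of the 575 erythroid cells, 422 lay at the minimum of 3 markers. Mast cells or basophils were below connective tissue in 8 of 8 libraries as well (0.340 to 0.736 times). Of the 239 cells of that gate, 110 came from Contra 3, and as few as 2 from a library (Intact 5). The 112 muscle fibre cells had the highest pooled level, 25662 CPM (95% exact Poisson interval 25288 to 26040, counting error only), but as few as 2 came from a library. Contra 3 alone gave 51 of these cells and 10624 of their 17971 member UMIs. Their level was above connective tissue in 7 of 8 libraries, at 0.312 to 4.43 times.

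**Figure D1:**
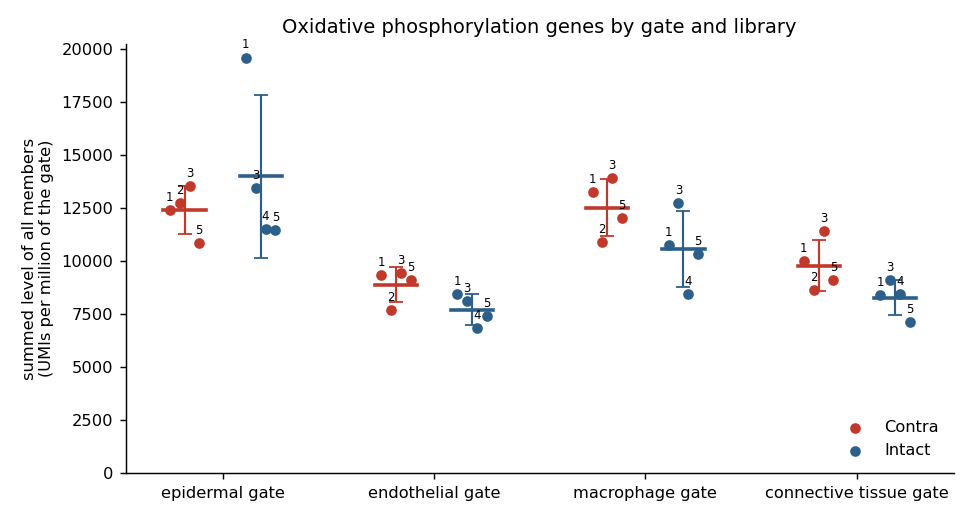
Summed level of the 107 identifiers in CPM (y axis) in each gate (x axis), Contra in red and Intact in blue; a point is a library with its number, bars show the mean and SD of 4 libraries. Intact 1 stands at 19575 CPM in the epidermal gate, where the other 7 libraries lie between 10826 and 13531 CPM.

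The ATP synthase and complex IV held most of this total. In the connective tissue gate the ATP synthase held 41.2 ± 0.728% of the member UMIs, complex IV 27.5 ± 0.710%, complex I 20.4 ± 1.14%, complex III 8.27 ± 0.384% and complex II 1.49 ± 0.189% (SD, n = 8 libraries). The 2 highest of each complex, by the mean CPM of the connective tissue and epidermal gates, were NDUFAB1 (191 CPM) and NDUFS5 (158 CPM) in complex I, NDUFAF6 (29.2 CPM) and NDUFAF4 (21.0 CPM) among the assembly factors, and SDHB (108 CPM) and SDHC (45.1 CPM) in complex II. In complex III they were UQCRH (381 CPM) and UQCRFS1, the Rieske iron-sulfur protein (169 CPM), in complex IV COX4I1 (529 CPM) and COX6A1 (430 CPM), and in the ATP synthase ATP5MC3, a c-ring subunit (749 CPM), and ATP5F1B, the catalytic beta subunit (561 CPM). Molecules were counted at their 3′ end, so these levels carry no factor of transcript length. Macrophages put more of the total into complex IV, 33.6 ± 1.43%, against 27.5 ± 0.710% in connective tissue. Epidermal cells put less into complex III, 6.65 ± 0.607%, against 8.27 ± 0.384% in connective tissue. These shares were not tested. They depend on which subunits the annotation names and counts: no SDHD was found, and UQCRC2 had 29 and UQCR11 27 UMIs in all cells.

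Several symbols had more than 1 identifier (26 of 76), and reads shared by near-identical copies may have been split between them. In some, 1 copy held nearly all UMIs, as in UQCRFS1 (99.7%), ATP5MPL (99.5%) and COX4I1 (98.6%). ATP5F1E was divided, with 55.2% of its UMIs in the leading identifier, and so were ATP5MC2 (49.7%), NDUFB5 (60.4%) and NDUFA5 (65.8%). Values of these copies are uncertain as levels of a gene. For NDUFA5, both entries carry the identifier AMEX60DD007422, under the names NDUFA5.S and NDUFA5.

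Epidermal cells had higher levels of most members than connective tissue cells of the same libraries. With sums per library tested by edgeR's quasi-likelihood method, with library as a block, 60 members rose and 7 fell of the 95 that passed the filter on low counts (adjusted p under 0.05), against 34.4% and 37.6% of the 23460 genes tested. The median log2 fold change was 0.58 over these members and -0.08 over all genes tested. All 3 complex II subunits rose, as did 25 of 34 complex I, 7 of 9 complex III, 9 of 16 complex IV and 12 of 24 ATP synthase identifiers; 4 of 9 assembly factors rose and 1 fell. Complex IV was the most divided, since 4 of its identifiers fell.

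COX7A2 and COX5B of complex IV and NDUFA7 of complex I had the largest increases among members past the threshold. COX7A2 had 367, 404, 420 and 359 CPM in Contra and 567, 429, 384 and 325 CPM in Intact epidermal cells. In connective tissue it had 140, 125, 183 and 143 CPM in Contra and 102, 135, 112 and 78.9 CPM in Intact. Every epidermal value of COX7A2 lay above every connective tissue value, a log2 fold change of 1.68 (SE 0.19, edgeR adjusted p = 1.76e-06). NDUFA7, an accessory subunit of complex I, averaged 78.4 ± 19.0 CPM in epidermal and 23.5 ± 4.79 CPM in connective tissue cells (SD, n = 8 libraries; log2 fold change 1.68, edgeR adjusted p = 5.03e-07). COX5B, another nuclear-encoded subunit of complex IV, averaged 372 ± 65.8 CPM in epidermal and 118 ± 12.6 CPM in connective tissue cells (SD, n = 8; log2 fold change 1.63, edgeR adjusted p = 3.01e-07). SDHA, the flavoprotein of complex II, averaged 36.2 ± 5.08 CPM in epidermal and 14.3 ± 1.19 CPM in connective tissue cells (SD, n = 8; log2 fold change 1.29, edgeR adjusted p = 1.03e-07). Each of these 4 was higher in epidermal cells in 8 of 8 libraries. Among those that fell, COX7A1 averaged 4.01 ± 1.41 CPM in epidermal and 9.65 ± 2.58 CPM in connective tissue cells (SD, n = 8; log2 fold change -1.32, edgeR adjusted p = 2.83e-05). COX6B1, which sits at the interface of the complex IV dimer, averaged 288 ± 54.5 CPM in epidermal and 424 ± 77.4 CPM in connective tissue cells (SD, n = 8; log2 fold change -0.58, edgeR adjusted p = 0.00474). The minor NDUFAF2 identifier AMEX60DDU001028214, for an assembly factor, averaged 1.52 CPM in epidermal and 3.14 CPM in connective tissue cells (log2 fold change -1.08, edgeR adjusted p = 0.00811).

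**Figure D2:**
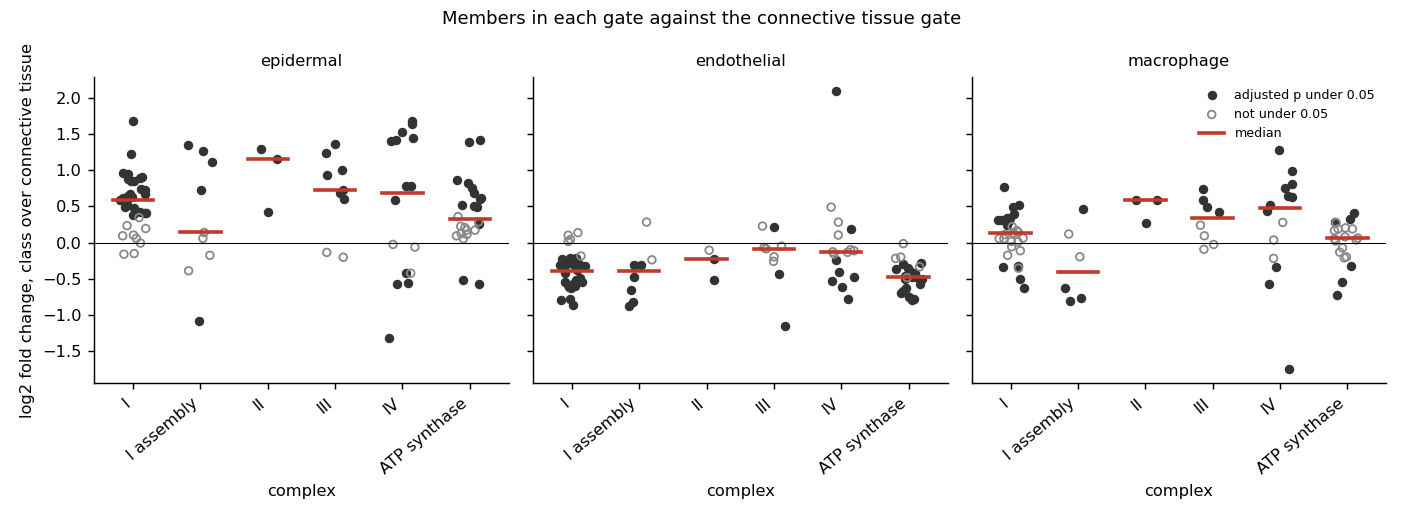
Log2 fold change of each member, class over connective tissue (y axis), by complex (x axis), in the epidermal, endothelial and macrophage gates; filled points had an edgeR adjusted p under 0.05, open points did not, and red bars are medians. Complex I medians are 0.58 in the epidermal, -0.39 in the endothelial and 0.13 in the macrophage panel.

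The epidermal rise moved with the depth of the cells. Epidermal cells with over 10000 UMIs had a median over libraries of 15032 CPM, against 7443 CPM in epidermal cells with 3000 to 10000 UMIs, and the ratio was 1.47 to 2.53 in 8 of 8 libraries. The step was 2.75 times (median ratio) for complex III, 2.41 for complex IV, 2.26 for the ATP synthase and 1.73 for complex I. It was 1.05 for complex II and 0.955 for the assembly factors, while cytosolic ribosomal protein genes had a ratio of 3.03. In connective tissue the same depth ranges gave a ratio of 0.827 to 1.35 for all members. Its cells with 3000 to 10000 UMIs had a median over libraries of 7395 CPM, close to the epidermal 7443 CPM. Those with over 10000 UMIs had 9026 CPM, against the epidermal 15032 CPM. The median cell had 5078 UMIs in the epidermal and 13988 UMIs in the connective tissue gate. Thinning each cell to 3000 UMIs, chosen after the data were seen and leaving out shallower cells (999 Contra and 900 Intact epidermal cells, 708 Contra and 194 Intact connective tissue cells), gives shallow and deep cells equal weight. It left 25 members higher and 17 lower of 85 tested, with a median log2 fold change of 0.02. These were 29.4% and 20% of the members tested, both below the 37.1% and 36.5% of all genes. The summed level of thinned epidermal cells was above that of connective tissue in 6 of 8 libraries, at 0.771 to 1.97 times. Thinned Contra cells averaged 9038 CPM in the epidermal and 9828 CPM in the connective tissue gate, and Intact cells 11069 and 8034 CPM. Of the thinned Intact epidermal libraries, Intact 1 stood at 15761 CPM and the others at 8978 to 9932 CPM. With library totals and no scaling factor, also chosen after the data were seen, 63 were higher and 7 lower (34.2% and 34.5% of all genes). The 25 were all among the 60 above, and edgeR on totals and DESeq2 called them higher too. They included SDHA and SDHC of complex II, COX5A, COX5B, COX6A1 and COX7A2 of complex IV, and NDUFS1 and NDUFV2 of the electron-carrying arm of complex I. The set that fell under all 4 treatments was COX6B1, COX7A1, the minor COX7A2L identifier and the ATP5MC2 identifier AMEX60DD053113. The least abundant ATP5MC2 identifier, AMEX60DD051934, was among the 25 that rose.

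**Figure D3:**
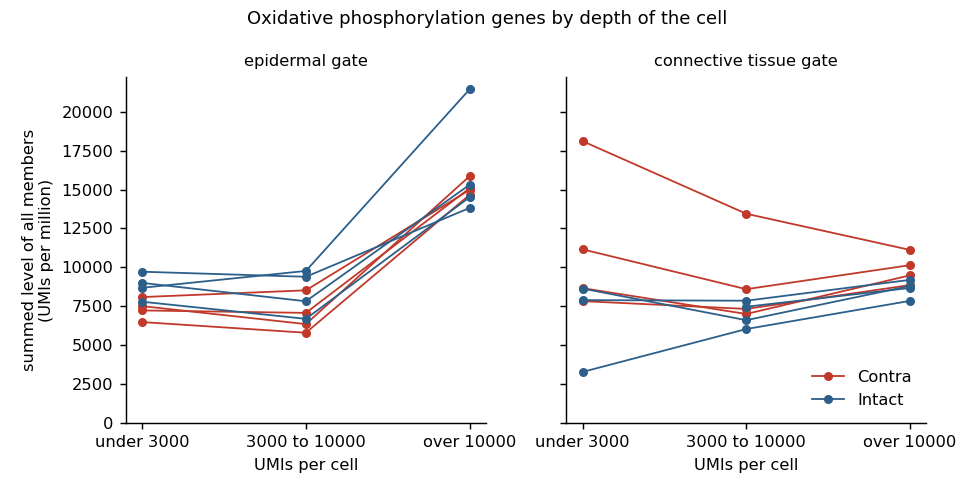
Summed level of the 107 identifiers in CPM (y axis) in cells of 3 depth ranges (x axis, UMIs per cell) for the epidermal and connective tissue gates; a line is a library, Contra red and Intact blue, with ranges of at least 20 cells. All 8 epidermal lines are highest over 10000 UMIs, at 13821 to 21451 CPM.

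In endothelial cells the number of members called in each direction depended on the scaling. With TMM scaling, 3 members were called higher and 61 lower than in connective tissue of 91 tested, against 30.6% and 29.6% of the 18037 genes tested (edgeR, adjusted p under 0.05). With library totals 18 were called higher and 31 lower, against 54.7% and 18.9% of genes. That change of scaling moved the median of all genes by about as much as that of the members: all genes had a median log2 fold change of 0.04 with TMM and 0.36 with totals, and the members -0.37 and -0.05. Relative to all genes the members were lower in both. In thinned cells 1 was higher and 50 lower of 71 (29.5% and 29% of all genes). The 31 lower calls made with totals were all among the 61, and 28 were also lower in thinned cells and by DESeq2. ATP synthase identifiers made up 19 of the 61 lower calls made with TMM and 11 of the 31 made with totals, and none was called higher in either.

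UQCRFS1 had the lowest fold change of the endothelial gate. It had 115, 96.3, 122 and 102 CPM in Contra and 110, 89.3, 76.3 and 75.1 CPM in Intact endothelial cells. In connective tissue it had 193, 176, 239 and 169 CPM in Contra and 165, 164, 158 and 133 CPM in Intact. No endothelial value reached the lowest connective tissue value, and the log2 fold change was -1.15 (SE 0.07, edgeR adjusted p = 9.95e-11) with TMM. ATP5F1B averaged 314 ± 34.8 CPM in endothelial and 438 ± 42.9 CPM in connective tissue cells (SD, n = 8), lower in 8 of 8 libraries, with a log2 fold change of -0.80 (edgeR adjusted p = 1.57e-08). The other large decreases by the log2 fold change were in the NDUFAF2 identifier AMEX60DDU001012395 (-0.87) and in NDUFA5 under its plain name (-0.87).

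COX7A1 went the other way. It had 68.0, 53.5, 52.4 and 57.5 CPM in Contra and 66.2, 41.8, 47.5 and 30.0 CPM in Intact endothelial cells. In connective tissue it had 11.2, 9.27, 10.4 and 9.78 CPM in Contra and 9.94, 8.74, 13.5 and 4.36 CPM in Intact. Every endothelial library stood above every connective tissue library, with a log2 fold change of 2.09 (SE 0.09, edgeR adjusted p = 2.25e-12) with TMM and 2.41 with totals, and COX7A1 was the 1 member called higher under TMM, totals, thinning and DESeq2. Summed muscle fibre markers were at 21.0 to 84.6 CPM in the endothelial and 45.3 to 91.1 CPM in the connective tissue gate, and means were 53.1 ± 17.8 CPM in endothelial and 62.0 ± 15.5 CPM in connective tissue cells (SD, n = 8). In the muscle fibre gate COX7A1 averaged 574 ± 414 CPM (SD, n = 8 libraries). The other endothelial increases with TMM were COX6A1 (log2 fold change 0.18) and the leading UQCRB identifier (0.21), a subunit of complex III. Neither of these 2 calls held by DESeq2 or in thinned cells. The COX6A1 call was also lost on leaving out Contra 1, 2 or 5 or Intact 1 or 3 (log2 fold change 0.14 to 0.19), and the UQCRB call on leaving out Contra 1 or 5 or Intact 5 (0.17 to 0.20).

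**Figure D4:**
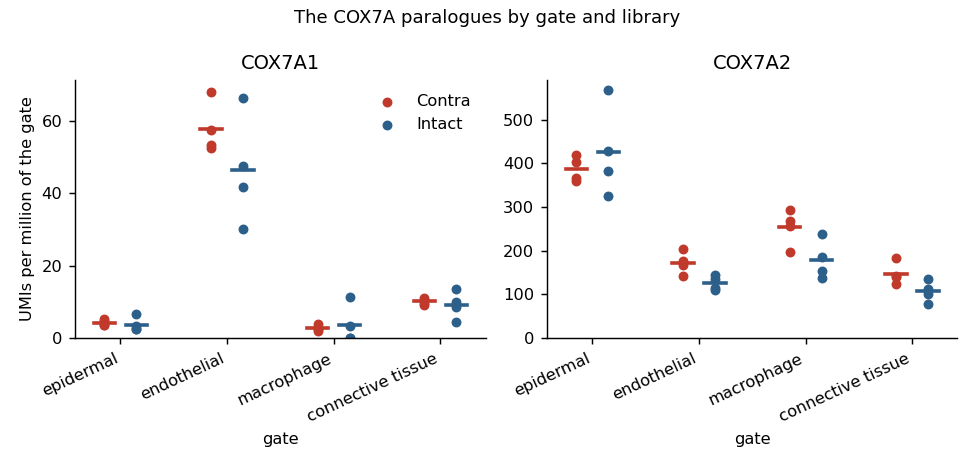
Levels of COX7A1 (left) and COX7A2 (right) in CPM (y axis) by gate (x axis); a point is a library, Contra red and Intact blue, and bars are means of 4 libraries. COX7A1 lies between 30.0 and 68.0 CPM in the endothelial gate and at most at 13.5 CPM in the other 3.

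In macrophages all 3 complex II subunits rose over connective tissue, as did 8 of 14 complex IV and 4 of 8 complex III identifiers. Of 80 members tested, 29 rose and 13 fell (edgeR, adjusted p under 0.05), which is 36.2% and 16.2% of them, against 32.6% and 34.4% of all 13466 genes. The share that rose was near that of all genes and the share that fell was below it. With thinned cells 5 rose and 18 fell of 59, which is 8.47% and 30.5% of them, against 29.1% and 34.6% of all genes. In thinned cells the share that rose was thus below that of all genes. With library totals 36 were higher and 9 lower (37.6% and 29.8%). The 5 that rose in thinned cells were COX5A, COX5B, COX6A1, SDHC and UQCRC1, all among the 29, and they rose under totals and DESeq2 as well. Another 5 fell under all 4 treatments: NDUFB1 and NDUFS4 of complex I, the main COX7A2L identifier, and the ATP5MC2 identifiers AMEX60DD029525 and AMEX60DD053113. NDUFS4 averaged 124 ± 11.9 CPM in macrophages and 161 ± 11.9 CPM in connective tissue cells (SD, n = 8; log2 fold change -0.50, edgeR adjusted p = 7.13e-05). COX6A1 had 727, 563, 721 and 601 CPM in Contra and 488, 561, 404 and 476 CPM in Intact macrophages. In connective tissue it had 237, 195, 258 and 219 CPM in Contra and 215, 212, 208 and 174 CPM in Intact. The 2 classes did not overlap, and the log2 fold change was 1.28 (SE 0.10, edgeR adjusted p = 1.34e-08). COX5B had a log2 fold change of 0.99 and COX5A of 0.82, and COX4I1 averaged 700 ± 102 CPM in macrophages and 385 ± 65.3 CPM in connective tissue cells (SD, n = 8). COX7A1 had 3.22 ± 3.56 CPM in macrophages and 9.65 ± 2.58 CPM in connective tissue cells, and fell by 1.75 on the log2 scale. Among the assembly factors NDUFAF2 (AMEX60DDU001012395) fell by 0.80 and NDUFAF6 by 0.76. The NDUFAF6 call was lost in thinned cells, where COX7A1 and NDUFAF2 did not pass the filter on low counts.

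Of the remaining paralogues, COX4I2, known in mammals as a lung form that responds to oxygen, stayed low, at 2.19 ± 0.694 CPM in epidermal, 3.92 ± 2.72 in endothelial, 2.44 ± 1.87 in macrophage and 3.23 ± 0.974 CPM in connective tissue cells (SD, n = 8), and those levels overlapped between gates. COX4I1 by contrast averaged 672 ± 135 CPM in epidermal, 345 ± 47.4 in endothelial and 385 ± 65.3 CPM in connective tissue cells. NDUFA4, a subunit now placed in complex IV, had its main identifier at 394 ± 157 CPM in epidermal and 248 ± 38.1 CPM in connective tissue cells, and Intact 1 alone stood at 759 CPM in the epidermal gate. Its minor identifier had 20.1 ± 2.59 CPM in epidermal and 7.19 ± 1.01 CPM in connective tissue cells (SD, n = 8; log2 fold change 1.40, edgeR adjusted p = 2.03e-07). COX7A2L, which takes part in supercomplex assembly, had 316 ± 85.4 CPM in epidermal and 410 ± 68.2 CPM in connective tissue cells at its main identifier. The second COX6B1 identifier was at 0.0705 CPM on the mean of the connective tissue and epidermal gates, and the second COX6A1 identifier, AMEX60DD028036, at 0.0918 CPM. In muscle fibre cells this COX6A1 copy averaged 44.1 ± 42.0 CPM (SD, n = 8 libraries), from 25 UMIs, while macrophages and T cells had 0 UMIs of it.

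Between Contra and Intact, no member passed the edgeR test in any of the 4 gates. In endothelial cells DESeq2 called 2 of 105 members, and 46 of 52129 genes. These totals hold every gene with any UMI in the gate. The filter on low counts used for edgeR left 83 members and 14891 genes. In connective tissue the summed level was 9963, 8619, 11398 and 9108 CPM in Contra and 8371, 9113, 8442 and 7127 CPM in Intact libraries. Intact 1, 3, 4 and 5 had 250, 2532, 470 and 221 cells in this gate, and a Contra library 1342 to 4622. Intact 5, with the lowest level, also had the lowest median depth, 8157 UMIs per cell. The groups overlapped, at means of 9772 ± 1218 CPM in Contra and 8263 ± 828 CPM in Intact (SD, n = 4 each; log2 ratio 0.24). The ratio was 0.29 for the numbers 1 and 3 and 0.19 for the others. With TMM-scaled library sizes it was 0.42, a move beyond the spread between libraries. The edgeR test called 0 of 96 members and 0% of the 30785 genes tested at an adjusted p under 0.05, and DESeq2 called 0 members and 89 genes. Without adjustment, 38 members were higher and 2 lower at p under 0.05, against 5.55% and 3.07% of all genes. The median log2 fold change was 0.28 over the members tested and 0.00 over all genes; with totals it was 0.11 over members and -0.14 over all genes. Without Contra 3 the members' median was 0.17. Cytosolic ribosomal protein genes moved alongside, at 120948 ± 14389 CPM in Contra and 98262 ± 13855 CPM in Intact connective tissue cells (SD, n = 4 each), and their part in the result was not tested.

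The members with the smallest p in connective tissue belonged to the ATP synthase and complex I. ATP5PD, a subunit of the peripheral stalk, had 213, 188, 259 and 221 CPM in Contra and 164, 181, 184 and 171 CPM in Intact cells. ATP5PO, which joins stalk and catalytic head, had 134, 117, 165 and 151 CPM in Contra and 109, 114, 115 and 109 CPM in Intact. For both, every Contra library was above every Intact library, yet the edgeR adjusted p was 0.508 for each, with log2 fold changes of 0.51 for ATP5PD and 0.51 for ATP5PO. NDUFA5 under its name with the suffix .S (log2 fold change 0.68), ATP5F1C, the gamma subunit (0.47), and NDUFA6 (0.52) had edgeR adjusted p of 0.479, 0.530 and 0.530. In all, 9 of the 96 members had Contra entirely above Intact (1.42% of all genes) and 1, a copy of NDUFB5, entirely below (4.6% of all genes).

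In the epidermal gate the summed level was 12399, 12720, 13531 and 10826 CPM in Contra and 19575, 13417, 11485 and 11444 CPM in Intact libraries. Contra averaged 12369 ± 1133 CPM and Intact 13980 ± 3842 CPM (SD, n = 4 each; log2 ratio -0.18). Intact 1 was above all others, and the remaining 3 Intact libraries lay within the range of Contra. The ratio was -0.35 for the numbers 1 and 3 and 0.04 for the other numbers, so the negative direction did not hold in both. The test called 0 of 95 members and 0% of 20747 genes (edgeR, adjusted p under 0.05), and DESeq2 called 0 members and 47 genes. At unadjusted p under 0.05, 2 members were higher and 5 lower (3.89% and 1.98% of all genes). The members tested had a median log2 fold change of -0.32, with 82 of 95 below 0, against -0.03 for all genes. Without Intact 1 the median was 0.03, with 52 above and 41 below 0. The negative epidermal median was therefore not seen without 1 library. TMM scaling, used for these medians, gave Intact 1 a factor of 0.714 in this gate, and the other libraries 0.986 to 1.14. A lower factor raises the scaled values of a library. The part of this factor in the result was not tested.

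Intact 3 and Intact 1 had the deepest epidermal cells by median, and Intact 1 had the highest level. Of its 802 cells 386 had over 10000 UMIs, as had 130 of 259 in Intact 3, and the median cell had 9547 UMIs in Intact 1 and 10055 in Intact 3, against 3856 to 6480 in the other 6 libraries. The Intact 1 cells with over 10000 UMIs had 21451 CPM, against 13821 to 15863 CPM in the other 7 libraries. In cells of 3000 to 10000 UMIs Intact 1 had 9767 CPM, against 5792 to 9392 CPM in the others. In cells under 3000 UMIs its 8684 CPM lay within the range of the other libraries. The median cell of Intact 1 had 12654 CPM, and that of the others 6023 to 8741 CPM. Its cytosolic ribosomal protein genes were at 102854 CPM and its summed connective tissue markers at 1985 CPM, the highest and the lowest of the 8 libraries in this gate. The part of depth, of these genes and of these markers in the result was not tested.

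**Figure D5:**
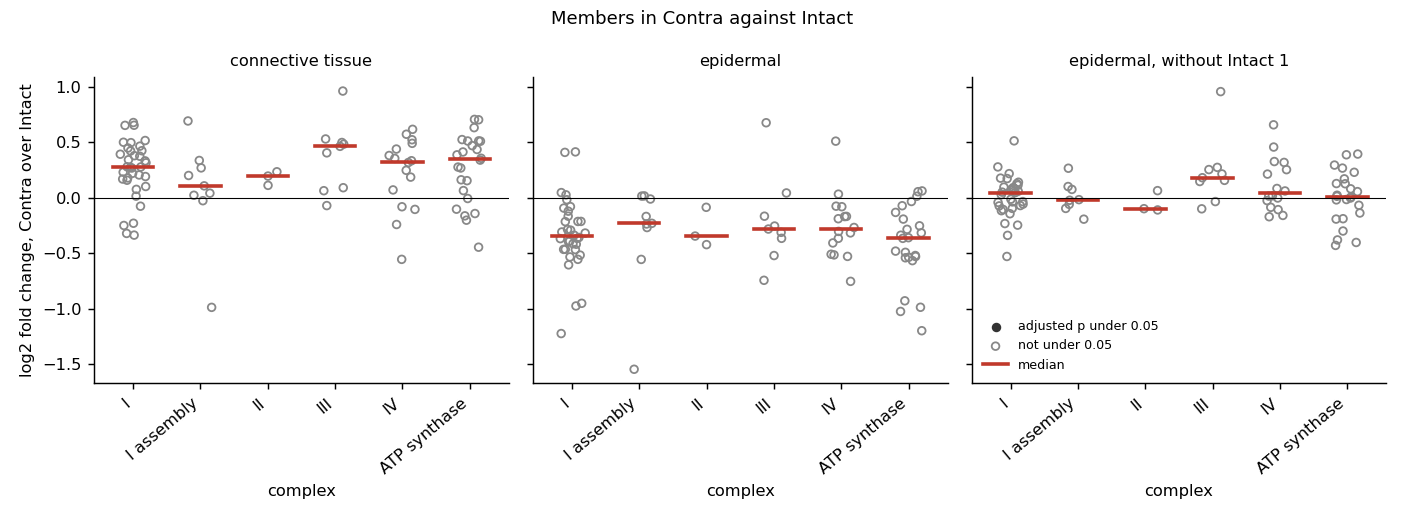
Log2 fold change of each member, Contra over Intact (y axis), by complex (x axis), in connective tissue, in epidermal cells and in epidermal cells without the library Intact 1; all points are open since none had an edgeR adjusted p under 0.05, and red bars are medians. Members center on 0.28, -0.32 and 0.03 in the 3 panels.

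Among the epidermal members with the smallest p, several had low levels. ATP5F1B was 1 of 2 members with Contra entirely below Intact (0.53% of all genes): it had 560, 635, 630 and 576 CPM in Contra and 1032, 690, 653 and 690 CPM in Intact cells (log2 fold change -0.53, edgeR adjusted p = 0.901). The other was NDUFB5 (AMEX60DD039139), with 8.88, 7.42, 7.95 and 3.76 CPM in Contra and 23.8, 10.8, 9.72 and 10.4 CPM in Intact cells (log2 fold change -1.22, edgeR adjusted p = 0.734). NDUFA5 under its plain name was the 1 member with Contra entirely above Intact (2.06% of all genes). NDUFAF2 (AMEX60DDU001028214, log2 fold change -1.55), UQCR10, a small complex III subunit (0.68), NDUFA5 under its plain name (0.41) and the ATP5F1D identifier AMEX60DD040572 (-0.99) had edgeR adjusted p of 0.685, 0.819, 0.819 and 0.843.

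The difference of the Contra effect between epidermal and connective tissue cells was tested directly, with library as a block. Earlier results of these data were known when the members were chosen, so this test is not independent of them. The test called 0 of 97 members and 0% of 26260 genes (edgeR, adjusted p under 0.05), and DESeq2 called 0 members and 94 genes. At unadjusted p under 0.05, 1 member was higher and 50 lower, against 4.2% and 5.85% of all genes. Members had a median difference of -0.60 on the log2 scale, and all genes -0.05; without Intact 1 the values were -0.23 and 0.02, with 79 of 97 members below 0. With library totals they were -0.31 over members and 0.22 over all genes, so that scaling moved both upward. The smallest p values were those of UQCRQ (AMEX60DD044026; -0.88), ATP5F1D (AMEX60DD040572; -0.98), COX7A2 (-0.87), NDUFA10 (-0.66) and NDUFS3 (-0.70), with edgeR adjusted p between 0.364 and 0.377. For COX7A2, the Contra values of connective tissue given above were all higher than the Intact values except that of Contra 2, which lay below Intact 3. In epidermal cells its Contra values lay inside the Intact range.

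Endothelial cells and macrophages leaned toward Contra without passing the test. An Intact library had 44 to 343 endothelial and 23 to 71 macrophage cells, and a Contra library 258 to 555 and 37 to 92. The summed endothelial level was 8879 ± 824 CPM in Contra and 7691 ± 723 CPM in Intact (SD, n = 4 each; log2 ratio 0.21), and the macrophage level 12503 ± 1340 CPM in Contra and 10556 ± 1774 CPM in Intact (SD, n = 4 each; log2 ratio 0.24). In endothelial cells edgeR called 0 of 83 members and 0% of 14891 genes. At unadjusted p under 0.05, 20 members were higher and 0 lower (4.23% and 2.42% of genes). DESeq2 called 2 members, COX7A2L and ATP5MD, among 46 genes. In macrophages edgeR called 0 of 73 and 0% of 10397 genes, with 5 higher and 2 lower unadjusted (2.7% and 2.9% of genes). COX7A2L had 358, 280, 385 and 374 CPM in Contra and 254, 265, 219 and 264 CPM in Intact endothelial cells. ATP5MD, an ATP synthase membrane subunit, had 350, 273, 356 and 355 CPM in Contra and 254, 265, 222 and 168 CPM in Intact endothelial cells. In both, Contra lay above Intact throughout, as in 3 of 83 members (1.67% of genes), with 0 members the other way (2.5%), but the edgeR adjusted p was 0.613 for each. Summed connective tissue markers in this gate stood at 1083 to 2572 CPM in Contra and 192 to 1389 CPM in Intact, and cytosolic ribosomal protein genes at 93369 ± 11896 CPM in Contra and 71452 ± 6274 CPM in Intact (SD, n = 4 each); their part in the result was not tested. UQCRQ, ATP5MF and COX7A2 followed, with edgeR adjusted p between 0.663 and 0.688. In macrophages NDUFA7 had 57.2, 52.3, 63.8 and 45.2 CPM in Contra and 25.4, 44.6, 27.3 and 20.5 CPM in Intact, without overlap (edgeR adjusted p = 0.718). It was 1 of 6 macrophage members of that kind (1.47% of genes), with 0 the other way (1.44%). By p, UQCRQ (AMEX60DD028843, log2 fold change 0.78), ATP5MPL (-0.91), COX6A1 (0.46) and ATP5MD (0.59) came next. Their edgeR adjusted p lay between 0.849 and 0.877. Of these, ATP5MPL was lower in Contra, at a mean of 17.2 CPM against 32.4 CPM in Intact.

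Other gene lists were read in the same tests, where 34.4% of all genes were higher and 37.6% lower in epidermal cells. A gene named for a list and direction had the smallest edgeR p there, which need not be the largest change. In epidermal against connective tissue cells, citric acid cycle genes had 14 higher and 1 lower of 21 tested, led by citrate synthase CS (log2 fold change 1.59), with IDH2 lower (-0.48). Both cytochrome c and CYC1 identifiers tested rose, led by CYCS (3.12), the carrier between complexes III and IV. Respiratory assembly genes had 14 higher and 1 lower of 24, led by BCS1L (2.38), which inserts the Rieske protein, with SDHAF4 lower (-0.32). Mitochondrial biogenesis genes had 5 higher and 0 lower of 7, led by the coactivator PPARGC1B (4.06). Mitochondrial ribosomal proteins had 44 higher and 15 lower of 75, led by MRPS26 (1.42) and MRPS6 (-1.31). Glycolysis was evenly split, with 6 higher and 6 lower of 14, the hexokinase HK2 up (3.30) and PFKM, the muscle form of phosphofructokinase, down (-2.64). The carriers and pores of the mitochondrial membranes had 3 higher and 3 lower of 10, VDAC2 up (0.74) and the ADP/ATP carrier SLC25A6 down (-3.20). Cytosolic ribosomal proteins went the other way, with 19 higher and 91 lower of 164, and so did immediate early genes, with 1 higher and 11 lower of 13. Mitotic genes had 5 higher and 1 lower of 8. The glycolysis and carrier splits were near those of all genes. In thinned cells, where 37.1% of genes were higher and 36.5% lower, the citric acid cycle had 8 higher and 1 lower of 13, cytochrome c and CYC1 had 2 and 0 of 2, respiratory assembly 7 and 1 of 21, and biogenesis 5 and 0 of 5. Mitochondrial ribosomal proteins then had 23 higher and 20 lower of 69, glycolysis 4 and 5 of 11, and carriers 0 and 4 of 7. Cytosolic ribosomal proteins had 8 higher and 115 lower of 136, immediate early genes 0 and 10 of 11, and mitotic genes 4 and 1 of 7. Between Contra and Intact none of these lists had a member called in any gate (edgeR, adjusted p under 0.05). Their medians in connective tissue ran from -0.14 for cytochrome c and CYC1 to 0.38 for cytosolic ribosomal proteins. Between these lay 0.21 for carriers, 0.20 for mitochondrial ribosomal proteins, 0.13 for glycolysis and 0.04 for the citric acid cycle, among others.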

How the data were processed

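The authors deposited UMI counts, as a sparse matrix of whole numbers for genes by cells. The submitters' processing notes name kallisto 0.48.0 and Seurat 4.2.0, without roles; the genome build, the strand setting and the cell filter are not given in the sources used here. The deposited cells had at least 450 genes. Genes encoded in mitochondrial DNA were not analysed here. The members, marker lists and other gene lists were chosen with earlier results of these data known.

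Cells with at least 500 genes were gated: a marker was on with at least 2 UMIs and a share of the cell's UMIs above its mean share over the 8 libraries, and a class needed 3 markers on and 2 times those of any other class. This way of scoring was chosen once values were known. By it 26452 cells were gated, 654 were left out for markers of another class and 6754 lay below the marker number.

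Counts were summed per library and gate and tested with edgeR 4.0.16 in R 4.3.3 (filterByExpr, TMM, quasi-likelihood test, two-sided, Benjamini-Hochberg over all genes tested). Class comparisons and the difference of effects had library as a block. DESeq2 1.42.0 was an alternative. The edgeR procedure was tested on simulated data. Summed levels are CPM of plain totals and carry no test. The named members were, by rule, the 5 with the smallest p in each Contra or difference test, the 3 largest changes past the threshold per direction in each class test, the 2 highest per complex, and paralogues; SDHA, COX4I1 in macrophages and other examples were chosen after their values were seen. Other choices varied were the gate, the filter, the scaling, the depth of cells and each library in turn. Intervals cover counting error only.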

Additional observations from a re-analysis of the deposited data

Results flagged for a closer look

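In 7 of 96 groups of 4 libraries, 1 library stood far from the other 3; chance flags about 1 in 20 groups. Complex I in epidermal cells stood at 3775 CPM in Intact 1, against 2459 to 2611 CPM in the other Intact libraries. The complex I identifier NDUFB5 AMEX60DD039139 stood at 23.8 CPM in Intact 1 epidermal cells, against 9.72 to 10.8 CPM in the others. Complex II in endothelial cells stood at 146 CPM in Intact 1, against 117 to 120.0 CPM in the others. Contra 2 was the low library in endothelial cells, with complex I at 1592 CPM against 1854 to 1877 CPM in the other Contra libraries, the ATP synthase at 2974 CPM against 3585 to 3703 CPM, and ATP5MD at 273 CPM against 350 to 356 CPM. ATP5F1C in connective tissue stood at 153 CPM in Intact 3, against 127 to 131 CPM in the other Intact libraries.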

How the results depend on the processing

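For the 43 pairs of a member and the test that named it, no fold change reversed under the alternatives run. Counted once for each pair and setting, 763 kept their side of the threshold, 19 lost it and 14 passed it. Settings in which the member was filtered out are not counted. The pairs were picked in these data for a small p or a large change, so a kept sign was largely fixed in advance. Pairs from the Contra and difference tests were not called to begin with, and kept their side by staying uncalled. Named members did change sign in other tests that had not called them, as COX7A1 in the difference test (log2 -0.19, against 0.45 in thinned cells and 0.12 with totals). The count of members called moved by over 1.5 times in these cases. In the endothelial test of Contra against Intact 0 were called. With no filter on low counts 6 of 105 were called there, against 310 of 52129 genes. DESeq2 called 2 of 105, against 46 of 52129 genes. For the difference of the Contra effect, 11 of 107 were called with no filter, all lower, against 417 of 60682 genes in both directions together. The totals of 52129 and 60682 genes include low-count genes that the filter removes. Thinned cells gave 42 calls of 85 in epidermal cells and 23 of 59 in macrophages, each against connective tissue, both directions together. All genes had 37.1% higher and 36.5% lower in the epidermal and 29.1% and 34.6% in the macrophage fit. The summed connective tissue level had a log2 ratio of Contra over Intact of 0.415 with TMM-scaled library sizes, against 0.24 with plain totals. The cause of these moves was not tested. Leaving out each library in turn gave 61 to 69 calls in epidermal, 53 to 66 in endothelial and 36 to 43 in macrophage cells. These counts were against connective tissue, both directions together, and each Contra test gave 0. The share of all genes called in those fits is not given here. With all libraries, all genes had 34.4% higher and 37.6% lower in epidermal, 30.6% and 29.6% in endothelial, and 32.6% and 34.4% in macrophage cells. The labels give libraries a number and do not say whether an equal number marks a pair. Same-numbered deviations correlated at -0.02 to 0.27 in connective tissue and 0.03 to 0.12 in epidermal cells. They correlated at 0.03 to 0.22 in endothelial cells and -0.09 to 0.30 in macrophages, and number 3 was the highest in each gate. With the replicate number as a block, 6 members were called in connective tissue and 2 in endothelial cells, all higher in Contra. In epidermal cells and macrophages 0 were called. Only the numbers 1, 3 and 5 occur in both groups, so that fit compares Contra with Intact within these numbers alone. The share of all genes it called is not given here, so these counts are not read as a result about the members. Macrophage values rest on 445 cells.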
